A study of Mus musculus with 2 samples.

Results

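The carbonic anhydrase genes Car1, Car2, Car3, Car4, Car5a, Car5b, Car8, Car12, Car13 and Car14 were examined in newborn mouse liver. They are 10 genes taken by symbol from a list of the family, out of 43346 Ensembl genes measured. RNA came from 2 livers of the inbred strain B6NCrl on postnatal day 0, described as 1 whole liver from each of 2 pups of the same dam, with no treatment named in the labels and the sex not recorded. The labels give both samples the same donor identifier, and every SD here (n = 2) takes them as separate animals, as their descriptions say. Both livers form 1 group of littermates, called pup 1 and pup 2 here, so the data describe levels and the spread between littermates and hold no contrast of conditions. The libraries held 42124582 and 41443673 expected counts (reads assigned to genes by the authors' estimate), and 3 counts, the most that a count of 0 allows, equal 0.0712 CPM in pup 1 and 0.0724 CPM in pup 2.

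Carbonic anhydrases convert carbon dioxide and water to bicarbonate and a proton, and the reverse, with a zinc ion held by histidines in the active site. The forms differ in where the enzyme sits: Car1, Car2, Car3 and Car13 are cytosolic, Car5a and Car5b enter mitochondria, Car4 is anchored to the outer cell surface by a lipid, and Car12 and Car14 span the plasma membrane. Car8 is a related protein that keeps the fold and has lost the activity. At birth the mouse liver is still a site of red cell formation, so its RNA comes from erythroid cells, which use carbonic anhydrase to carry carbon dioxide, as well as from hepatocytes, which use bicarbonate for urea and glucose synthesis.

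The part of the coding sequence that binds the zinc is shown for the cytosolic and mitochondrial forms and for Car14, since it is the stretch that these enzymes share. Each stretch is 45 coding bases read 5′ to 3′ on the gene's own strand from GENCODE M21 on GRCm38, and the capitals mark the codons aligned with the first and second zinc-binding histidines of Car2 (codons 94 and 96 of Car2, counted from the start codon).
Car2 (chr3:14895057-14895101, plus strand): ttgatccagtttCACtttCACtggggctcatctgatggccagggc
Car1 (chr3:14776257-14776301, minus strand): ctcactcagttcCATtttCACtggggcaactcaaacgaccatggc
Car3 (chr3:14866838-14866882, plus strand): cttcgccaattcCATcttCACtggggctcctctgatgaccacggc
Car13 (chr3:14650694-14650738, plus strand): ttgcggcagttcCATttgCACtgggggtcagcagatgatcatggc
Car5a (chr8:121927122-121927166, minus strand): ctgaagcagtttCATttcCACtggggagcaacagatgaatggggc
Car5b (chrX:163991390-163991434, minus strand): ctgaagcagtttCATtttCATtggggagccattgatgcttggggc
Car14 (chr3:95900285-95900329, minus strand): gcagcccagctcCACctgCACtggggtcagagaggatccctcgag
Both codons in capitals encoded histidine in each of the printed genes, as CAC or CAT, and so did the codon aligned with the third zinc-binding histidine (codon 119 of Car2). None of the printed stretches crossed an intron.

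How far the members resemble each other bears on whether reads could be divided among them. Over the 45 pairs of members, aligned coding sequences shared between 42.9% of bases (Car4 and Car13) and 64.6% (Car1 and Car13), with a median of 48.0%. Car2 shared 63.5% with Car3 and 62.3% with Car1, and the mitochondrial forms Car5a and Car5b shared 63.9%. The longest run of identical aligned bases was 30 nt, between Car2 and Car13. Expected counts were whole numbers in both livers, within a tolerance of 0.005, for 7 of the 10 members. Car14 had fractional estimates in both livers (840.4 and 726.82). Car1 (2524.96) and Car5a (344.9) had them in pup 1 and whole counts in pup 2 (2376 and 211). With which genes these reads were shared was not tested. The read length is not given in the sources used here.

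The family was dominated by 1 enzyme. Levels are given as TPM, reads per length brought to the same total in each library, so they can be compared between genes and added. The 10 members summed to 995 TPM in pup 1 and 911 TPM in pup 2 (953 ± 59.9, SD, n = 2), which was 0.0953% ± 0.00599 of all TPM. Car2 held 86.3% ± 0.211 of the family's TPM, Car1 6.99% ± 0.12 and Car3 3.57% ± 0.197. By site, the 4 cytosolic forms held 96.9% ± 0.107, the 3 membrane forms 1.48% ± 0.0624, Car8 0.874% ± 0.162 and the 2 mitochondrial forms 0.718% ± 0.206.

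Detection was set at 1 TPM, to be reached in both livers, and 6 of the 10 members were detected (Car2, Car1, Car3, Car14, Car8 and Car5a), against 28.5% of all Ensembl genes. Their ranks among Ensembl genes by mean TPM ran from 138 for Car2, through 1517 for Car1, 2659 for Car3 and 4958 for Car14, to 6620 for Car8 and 7290 for Car5a. Car13 lay just under the threshold in both livers, and Car5b, Car12 and Car4 lay far under it. The order of levels was compared between neighbours by the log2 ratio of TPM + 0.1 within each liver. A ratio was called larger than the spread where its sign was equal in both livers and its mean exceeded 3 SD. Two-sided sign permutation over 2 livers cannot give an exact p under 0.5, so no p-value is printed. Neighbours were set by the mean TPM of these same livers, so the direction of the ratios was largely given in advance. By the rule of 3 SD, 6 of the 9 neighbouring pairs were apart. Car14 and Car8 (0.75 ± 0.32 on the log2 scale, SD, n = 2) and Car8 and Car5a (0.32 ± 0.68) were not separated beyond their spread. Neither were Car12 and Car4 (0.32 ± 0.23). Car5b and Car12 were apart by 0.47 ± 0.047. With the posterior mean TPM, deposited as a second estimate, the order of both of the last pairs turned, to −0.64 for Car12 over Car4 and −0.30 for Car5b over Car12.

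**Figure D1:**
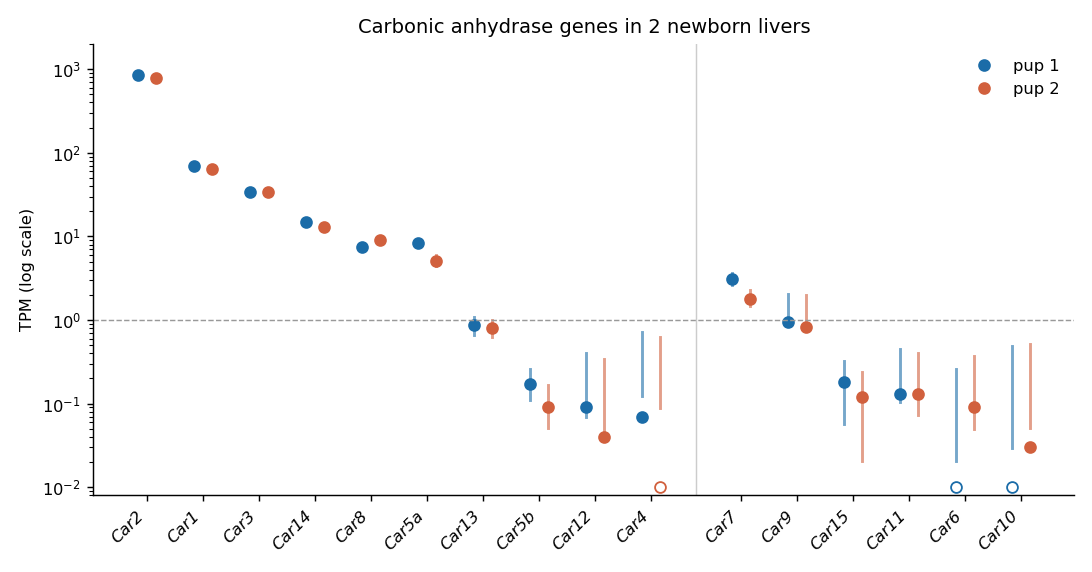
TPM on a log scale of the 10 carbonic anhydrase genes (left of the vertical line, ordered by mean) and of 6 further genes of the family (right) in each liver. Points are the deposited TPM, vertical bars the deposited credible intervals, open circles at the bottom values of 0, and the dashed line a TPM of 1. Car2 stood at 860 and 784 TPM, and 6 members and Car7 lay above the dashed line in both livers.

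The 4 cytosolic genes lie within 259.043 kb on chromosome 3 (GENCODE M21, GRCm38), and their mean levels ran from 0.84 to 822 TPM. Car2 (ENSMUSG00000027562.8, chromosome 3, 14886273 to 14900770, plus strand), the high-activity form of red cells, stood at 860 and 784 TPM in pups 1 and 2. Car3 (ENSMUSG00000027559.5, 14863512 to 14872523, plus strand), a low-activity form known from muscle, fat and liver, ends 13.75 kb before the start of Car2 and stood at 34.1 and 33.7 TPM. Car1 (ENSMUSG00000027556.11, 14766216 to 14808368, minus strand), the other main form of red cells, stood at 68.7 and 64.4 TPM. Car13 (ENSMUSG00000027555.8, 14641727 to 14663002, plus strand), the outermost gene, stood at 0.87 and 0.81 TPM from 68 and 64 counts. Levels differed by unequal amounts within the cluster. Car2 exceeded Car3 24.1-fold (4.59 ± 0.083 on the log2 scale, SD, n = 2) and Car13 by 9.77 ± 0.029 on the same scale, and Car1 exceeded Car13 by 6.15 ± 0.00072. Car1 exceeded Car3 by 0.97 ± 0.055. Each of these differences was larger than the spread between the livers.

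**Figure D2:**
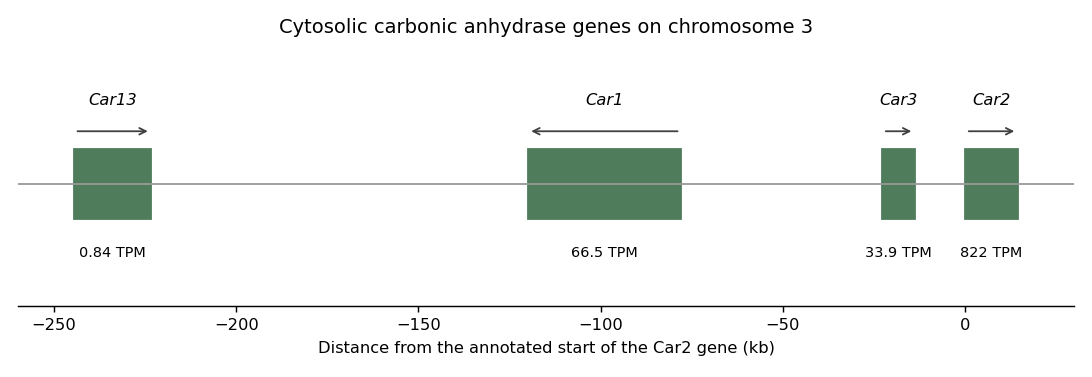
Map of the 4 cytosolic carbonic anhydrase genes on mouse chromosome 3, drawn to scale as the distance in kb from the annotated start of Car2. Boxes are whole genes, arrows give the direction of transcription, and the number under each gene is its mean TPM over both livers, from 0.84 TPM for Car13 to 822 TPM for Car2.

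Between the livers, 0 of the 6 detected members passed the rule of size, which asked for a 2-fold difference on the log2(TPM + 1) scale and separate credible intervals, against 0.629% of the 12711 genes whose mean reached 1 TPM (72 higher and 8 lower in pup 2). Separate credible intervals alone were found for 3 of the 6 members, Car2 and Car5a lower and Car8 higher in pup 2, against 20.1% of genes (1760 lower and 797 higher). For Car2 the deposited TPM lay above its own credible interval in both livers (839 to 854 and 765 to 779 TPM), the intervals belonging to the posterior mean estimate. In all, 5 of the 6 members were lower in pup 2, with a median log2 ratio of −0.11, against 8009 lower and 4658 higher among all genes, and 4 of the 6 were lower when counts were scaled in place of TPM. Except for Car5a, the differences were smaller than the SD of genes at a like level. Among the 962 genes of 100 to 1000 TPM the log2 ratios had an SD of 0.19 beside a value of −0.13 for Car2. For the 4929 genes of 10 to 100 TPM it was 0.28, beside −0.09 for Car1, −0.02 for Car3 and −0.19 for Car14. For the 6706 genes of 1 to 10 TPM it was 0.36, beside 0.22 for Car8 and −0.62 for Car5a.

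**Figure D3:**
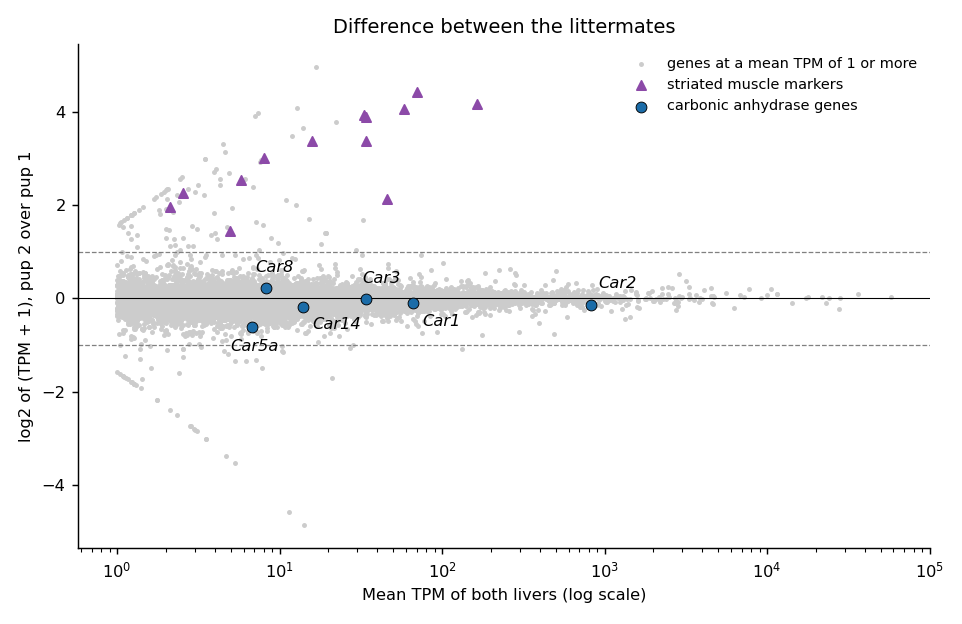
Log2 ratio of TPM + 1, pup 2 over pup 1, against the mean TPM of both livers on a log scale. Grey points are the 12711 genes whose mean reached 1 TPM, circles the 6 detected carbonic anhydrase genes, triangles the 13 of 14 striated muscle markers among these genes, and dashed lines 2-fold. The 6 members lie between −0.62 and 0.22, inside the dashed lines. The 10 muscle markers that reached 1 TPM in each liver all lie above them. Myh8, Mb and Ttn also do, but they reached a mean of 1 TPM only through pup 2.

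The red cell forms were read beside 15 erythroid markers, all of which were detected. The most abundant of these were the alpha globin genes Hba-a2 (57572 TPM in pup 1 and 58710 in pup 2) and Hba-a1 (27930 and 28197), near-identical copies whose reads cannot be divided with certainty. Car2 stood 2.93-fold above Slc4a1, the chloride and bicarbonate exchanger of the red cell membrane (1.55 ± 0.029 on the log2 scale, SD, n = 2). Between the livers, Car2 was lower in pup 2 by 0.13 on the log2(TPM + 1) scale. Its ratio of counts per depth, pup 2 over pup 1, was 0.936 (exact conditional binomial 95% interval 0.925 to 0.948, counting error only, as for all count ratios here). Car1 was lower by 0.09, with a count ratio of 0.956 (0.904 to 1.01). The erythroid markers had a median log2 ratio of −0.13 on the same scale, with 11 lower and 4 higher in pup 2 and none 2-fold apart. All 12711 genes had a median of −0.05. Scaling of counts by TMM factors moved the erythroid median to −0.05 and its split to 9 lower and 6 higher. The differences of Car2 and Car1 thus lay at the size of those of the erythroid list, and in bulk RNA fewer erythroid cells and less RNA per cell cannot be told apart.

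Almost all Car2 RNA was assigned to 1 transcript. Car2-201, which encodes the full protein in 7 exons, held 97.93% of the gene's TPM in pup 1 and 98.59% in pup 2. A transcript with a retained intron, Car2-203, held 1.93% and 1.27%, from 463 and 279 counts, a count ratio of 0.612 (95% interval 0.526 to 0.712).

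Car1 is known to use separate start sites in red cells and in the colon, the red cell start being the more upstream one, and its reads in these livers were assigned mainly to transcripts from there. Car1-203 held 90.86% of the gene's TPM in pup 1 and 92.2% in pup 2, and the short Car1-202, whose start lies 3 nt away, held 7.42% and 7.8%. Car1-201 starts 29906 nt further downstream and has a coding sequence of the same length, 783 nt. It was assigned 45.61 counts (1.73%) in pup 1 and 0 in pup 2. The share of the downstream start was therefore small in both livers and rested on fractional counts.

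Car3 was level in livers that differed widely in muscle RNA. Car3 had 1843 counts in pup 1 and 1839 in pup 2, and its count ratio was 1.01 (95% interval 0.95 to 1.08). Its log2 ratio was −0.02 on TPM and turned to 0.02, 0.05 and 0.04 with counts scaled by library totals, TMM factors and DESeq2 size factors. Of 14 striated muscle markers, 14 had a higher TPM in pup 2, and the 10 that reached 1 TPM in each liver were each at least 2-fold higher there with separate credible intervals. The 14 markers summed to 62.2 TPM in pup 1 and 893 in pup 2, including the actin gene Acta1 at 16.3 and 310 TPM and the myosin light chain gene Myl1 at 5.32 and 134 TPM. Car3 thus stood at 33.9 ± 0.262 TPM (SD, n = 2) in livers whose muscle marker sum differed 14.4-fold, and its levels overlapped within the deposited credible intervals of 32.0 to 35.7 TPM and 31.7 to 35.2 TPM.

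Fat and pericentral hepatocytes, other sites where Car3 is known, were examined through their markers. Of 9 adipocyte markers, 2 were detected: the fatty acid binding protein gene Fabp4 at 99.0 and 86.6 TPM, which endothelial cells also express, and the lipid droplet gene Cidec at 5.18 and 7.09 TPM. The defining adipocyte genes were at or near 0, with 1 count in pup 1 and 0 in pup 2 for Adipoq, 0 and 1 for Plin1, and 0 in both livers for Lep, Cfd and Ucp1. Retn had 0 and 2 counts and Cidea 9 and 46, and the 9 markers summed to 104.44 and 94.97 TPM. Of 8 pericentral genes, 5 were detected, led by Cyp2e1 at 483 and 541 TPM and the glutamine synthetase gene Glul at 269 and 260 TPM. Lgr5 (0.64 and 0.42 TPM), Axin2 (0.41 and 0.55 TPM) and Slc1a2 (0.65 and 1.01 TPM) were not detected. Which cells held the Car3 RNA was not tested.

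A transcript of Car3 did differ in share. The coding transcript Car3-201 held 90.57% of the gene's TPM in pup 1 and 86.3% in pup 2. The retained-intron transcript Car3-202 held 3.62% in pup 1 and 10.44% in pup 2, a difference of 6.82 points, with 56.86 and 163.54 counts and a count ratio of 2.92 (95% interval 2.15 to 4.03). A second retained-intron transcript, Car3-203, differed in the other direction, at 5.82% and 3.25%, with a count ratio of 0.569 (0.345 to 0.922). Among transcripts of genes with 2 or more transcripts and a mean TPM of 10 or more, 10.4% differed by at least 5 points between the livers. Of the 13 such transcripts of the 4 members at that level, Car3-202 was the 1 that did, a share near that background. The muscle markers moved with this transcript, and their part in it was not tested.

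**Figure D4:**
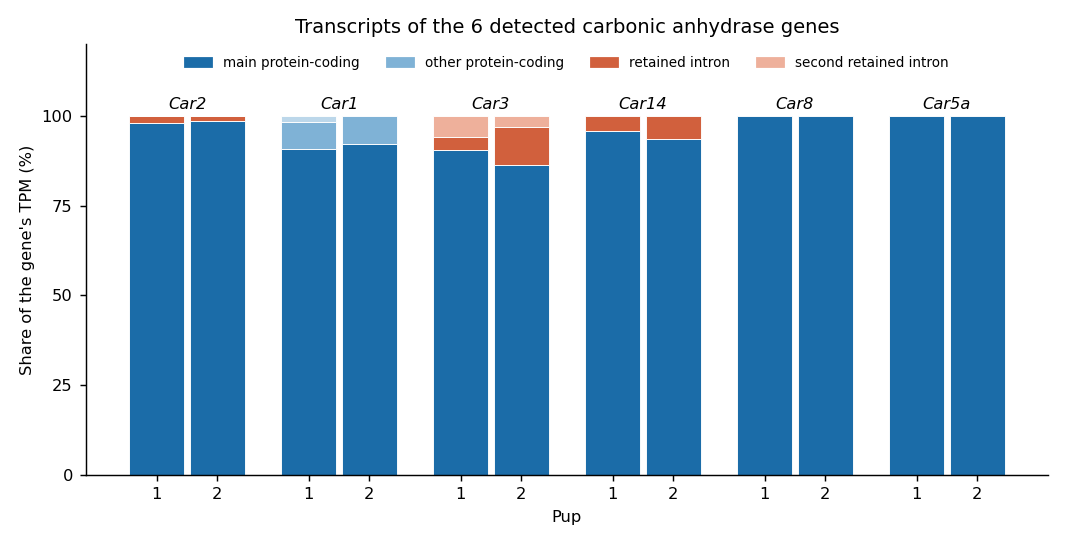
Share of each gene's TPM, in percent, assigned to its transcripts in pup 1 and pup 2 for the 6 detected carbonic anhydrase genes. Dark blue is the main protein-coding transcript, lighter blue shades other protein-coding transcripts and orange shades retained-intron transcripts, and the visible difference is 1 retained-intron transcript of Car3, at 3.62% in pup 1 and 10.44% in pup 2.

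The mitochondrial pair was led by the liver form. Car5a (ENSMUSG00000025317.7, chromosome 8, 121916126 to 121944904, minus strand), which supplies bicarbonate to the first enzyme of the urea cycle and to pyruvate carboxylase, had 8.43 TPM in pup 1 and 5.12 in pup 2. Car5b (ENSMUSG00000031373.4, chromosome X, 163976822 to 164027997, minus strand), the more widely expressed mitochondrial form, stood at 0.17 and 0.09 TPM from 20 and 11 counts. With 0.1 added to TPM, Car5a exceeded Car5b 29.5-fold (4.88 ± 0.14 on the log2 scale, SD, n = 2). The size of this ratio depended on the value added, since Car5b itself lay near 0.1 TPM. The log2 ratio was 5.73 with 0 added and 2.75 with 1 added. Every Car5a read was assigned to the coding transcript Car5a-201, 100% in both livers.

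Among the 6 detected members, Car5a differed most between the littermates. It had 344.9 counts in pup 1 and 211 in pup 2, 1.61-fold more per depth in pup 1 (95% interval 1.35 to 1.92), and the deposited credible intervals of 7.57 to 9.44 TPM and 4.49 to 5.98 TPM did not overlap. On the log2(TPM + 1) scale the difference was −0.62, and 2.38% of the 12711 genes, of all levels, were at least as far apart. Car5a was singled out as the largest of the 6, which this share does not allow for. The difference ranged from −0.84 to −0.56 over the other scalings and pseudocounts, so pup 2 was lower in each. The difference missed the 2-fold rule and passed a 1.5-fold one.

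The enzymes that use mitochondrial bicarbonate were read beside it. Cps1, the carbamoyl phosphate synthetase of the urea cycle, stood at 273 TPM in pup 1 and 246 in pup 2, and Pcx, pyruvate carboxylase, at 222 and 175 TPM. Cps1 stood 38.9-fold above Car5a (Car5a over Cps1 −5.28 ± 0.40 on the log2 scale, SD, n = 2). Both were lower in pup 2 with separate credible intervals, Cps1 by 0.15 and Pcx by 0.35 on the log2(TPM + 1) scale. The biotin enzymes of propionate and leucine breakdown, Pcca, Pccb, Mccc1 and Mccc2, ranged from 8.68 to 27.3 TPM, and the fatty acid synthesis gene Acaca stood at 1.69 and 1.71 TPM. Of the 8 bicarbonate-using enzymes 7 were detected, 4 were lower and 3 higher in pup 2 and none was 2-fold apart, with a median log2 ratio of −0.07. Counts scaled by library totals gave 5 lower and 2 higher. Among 10 hepatocyte markers, led by Trf (29787.5 and 25416 TPM) and Apoa1 (23872 and 24077 TPM), none was 2-fold apart and the median was −0.10. The largest difference was that of the tyrosine aminotransferase gene Tat, 94.4 TPM in pup 1 and 56.4 in pup 2 (−0.73 on the log2 scale). Tat was singled out after its values were seen. Its part, and that of hepatocyte content, in the Car5a difference was not tested.

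**Figure D5:**
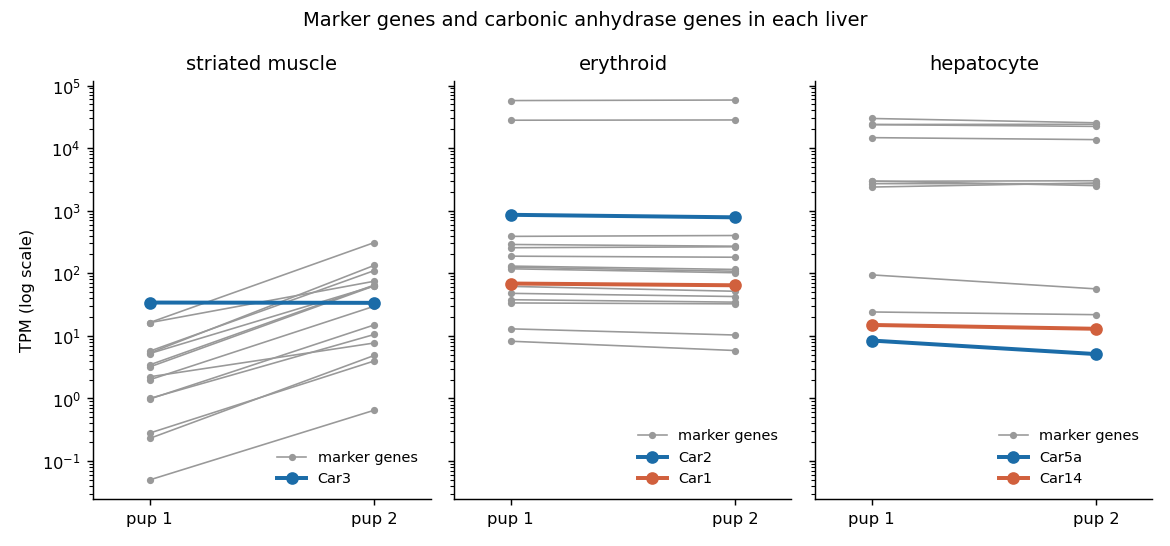
TPM on a log scale in pup 1 and pup 2, joined by a line for each gene. Grey lines are 14 striated muscle, 15 erythroid and 10 hepatocyte markers, coloured lines the carbonic anhydrase genes read beside them. The muscle markers lie far higher in pup 2 while Car3 stays at 34.1 and 33.7 TPM, Car2 and Car1 run nearly parallel to the erythroid markers, and Car5a lies at 8.43 and 5.12 TPM.

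Of the membrane forms Car14 was detected and Car4 and Car12 were not. Car14 (ENSMUSG00000038526.10, chromosome 3, 95897768 to 95904691, minus strand), a transmembrane form known from the hepatocyte surface, had 15.0 TPM in pup 1 and 13.0 in pup 2, from 840 and 727 counts. The transmembrane form Car12 (ENSMUSG00000032373.10, chromosome 9, 66713686 to 66766845, plus strand) had 6 and 3 counts. The lipid-anchored Car4 (ENSMUSG00000000805.14, chromosome 11, 84957786 to 84966044, plus strand), known from capillary endothelium and kidney, had 1 and 0. The credible intervals of Car14, 13.9 to 16.1 and 12.0 to 14.1 TPM, lay above the upper bounds of Car12 (0.406 and 0.341 TPM) and Car4 (0.711 and 0.629 TPM). The levels of Car12 and Car4 lay at or near the counting floor, so no fold is given. Endothelial RNA was present, with 7 of 7 endothelial markers detected, led by Egfl7 at 46.8 and 43.8 TPM and Lyve1 at 34.0 and 40.1 TPM. Kidney markers were at 0 in both livers for 6 of 7 genes, and the other, Lrp2, had 20 and 13 counts. Car14 RNA was assigned mostly to the coding transcript Car14-201, at 95.67% and 93.49%, with the rest, 4.33% and 6.51%, in the retained-intron transcript Car14-204. Its count ratio between the livers was 0.88 (95% interval 0.795 to 0.973), and its credible intervals overlapped. Car5a and Car14 differed by −1.07 ± 0.36 on the log2 scale, which was not beyond the spread.

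Car8, the related protein, was on TPM the 1 detected member that was higher in pup 2. Car8 (ENSMUSG00000041261.9, chromosome 4, 8143362 to 8239041, minus strand) binds the receptor for inositol trisphosphate, encoded by Itpr1, and is best known from Purkinje cells of the cerebellum. It had 7.56 TPM in pup 1 and 9.00 in pup 2, from 1010 and 1210 counts, a count ratio of 1.22 (95% interval 1.12 to 1.33). Its credible intervals of 6.99 to 7.91 and 8.37 to 9.37 TPM did not overlap, and its log2 ratio on the TPM + 1 scale was 0.22. With counts scaled by library totals, TMM factors and DESeq2 size factors, the log2 ratio was 0.27, 0.31 and 0.29. Scaled by the ERCC spike-ins, synthetic RNAs added to each library, it was 0.01. The spike-ins held 163 counts in pup 1 and 190 in pup 2. Itpr1 itself stood at 1.57 and 1.35 TPM and was the 1 of 6 neuron markers that was detected, with Rbfox3 next at 0.64 and 0.63 TPM. The Purkinje markers Pcp2 and Calb1 had 2.05 and 1.03 counts and 3 and 2 counts. Car8 RNA was measured beside those low counts, and which cells held it was not tested. Car3 exceeded Car8 by 2.03 ± 0.19 on the log2 scale (SD, n = 2), larger than the spread.

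Other tissue markers also separated the livers. Pancreas markers had a higher TPM in pup 2 for 8 of 8 genes, with a summed level of 6.09 and 118 TPM. The 3 that reached 1 TPM in each liver were at least 2-fold higher. The most abundant were Ctrb1 at 0.11 and 33.6 TPM and Clps at 1.18 and 26.6 TPM. Lung markers had a higher TPM in pup 2 for 5 of 6 genes. The exception was the most abundant, Napsa, at 16.1 and 15.3 TPM. Sftpc (1.52 and 12.1 TPM) was at least 2-fold higher in pup 2, and Ager stood at 1.23 and 1.69 TPM. Scgb1a1 (0.75 and 3.26 TPM) reached a mean of 1 TPM only through pup 2. Sftpa1 (0.28 and 1.13 TPM) and Sftpb (0.14 and 0.17 TPM) had means under 1 TPM. Bile duct markers were detected for 6 of 7 genes, led by Spp1 at 90.4 and 64.3 TPM and Krt19 at 6.87 and 4.86 TPM. Carbonic anhydrases are also made in muscle, pancreas, lung and bile duct, and the part of these tissues in the members' levels was not tested.

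The transporters that carry the enzymes' substrate and product were detected for 9 of 15 genes. The red cell proteins Slc4a1 (289 TPM in pup 1 and 271 in pup 2) and Rhag (61.8 and 51.7 TPM), a gas channel of the Rhesus complex, and the water channel Aqp1 (117 and 117 TPM) were the most abundant together with the scaffold gene Slc9a3r1 (89.0 and 100.07 TPM). Anion exchanger Slc4a2 (6.87 and 6.41 TPM) and the sodium bicarbonate cotransporters Slc4a4 (3.56 and 2.89) and Slc4a7 (2.05 and 1.48) followed. Their deposited TPM lay under that of Car8. For Slc4a2 the deposited TPM lay under its own credible interval in both livers (7.15 to 10.5 and 6.62 to 9.57 TPM). Those intervals overlapped the ones of Car8. None of the 9 was 2-fold apart, 7 were lower and 2 higher in pup 2 on TPM, and 5 were lower and 4 higher with counts scaled by library totals. The anion exchanger Slc26a6 stood at 2.11 and 2.09 TPM.

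Of 6 further genes of the family 1, Car7, was detected. Car7, a cytosolic form known from neurons and muscle, had 3.06 TPM in pup 1 and 1.79 in pup 2, from 159 and 93 counts. Its count ratio was 0.595 (95% interval 0.455 to 0.773), its credible intervals did not overlap, and 3.19% of genes were at least as far apart on the log2 scale. Pup 2, where Car7 was lower, was the liver with more muscle RNA, and the part of muscle in the level of Car7 was not tested. The hypoxia-induced form Car9 lay under the threshold at 0.96 and 0.82 TPM. Car15 and Car11 stood between 0.12 and 0.18 TPM, and the secreted Car6 and the related gene Car10 had 0 counts in pup 1 and 2 and 3 counts in pup 2.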

How the data were processed

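The 10 members, the marker lists and the pairs were chosen with earlier results of these data known. Libraries were made from 10 ng of RNA over 200 nt with ERCC spike-ins. The labels name the assay total RNA-seq and also cite a low-input cDNA kit manual, so how the first strand was primed is not settled. Notes that the submitters deposited beside the tables name the assembly mm10 and annotation M4. Aligner and counter were not given in the sources used here. The authors deposited expected counts (estimated reads per gene), TPM and FPKM per gene and transcript, the percent of a gene's TPM that each transcript takes, and posterior mean TPM with credible bounds, treated here as a score because their level is not stated.

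Symbols and coordinates came from GENCODE M21 on GRCm38 by Ensembl identifier, which matched 42462 of 43346 genes. Named genes were all members, the other 6 family genes, the transporters and enzymes given with values and the 2 most abundant markers of each cell type list (of kidney the 1 above 0), and any other gene named was chosen after its values were seen. Coding sequences were aligned with Biopython 1.88 (global, BLOSUM62). Other steps used Python 3.11.15, pandas 2.3.3, numpy 2.4.6, scipy 1.17.1 and matplotlib 3.10.9. Alternative scalings used edgeR 4.0.16 (TMM factors) and DESeq2 1.42.0 (size factors) in R 4.3.3 on expected counts rounded to whole numbers. The log2(TPM + 1) scale understates differences of low genes. The rule of size compares 2 animals with 1 library each and has no replicate check. It was tested on simulated data. The alternatives were the estimate of TPM, pseudocounts, thresholds, scalings, units and either liver alone. Values of 1 listed transporter and 1 coding stretch are not reported here.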

Additional observations from a re-analysis of the deposited data

How the results depend on the processing

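No paired analysis was possible because the samples form 1 group. The family held 0.133% of expected counts against 0.0953% of TPM, and Car2 held 88.2% of the family's expected counts against 86.3% of its TPM, since counts weight genes by length. At 1.5-fold, 188 genes were apart (127 higher and 61 lower in pup 2) against 80 at 2-fold, and Car5a made 1 member against 0. Of the pairs, Car5b over Car12 reversed, from 0.47 to −0.30 on the log2 scale with posterior mean TPM, on 20 and 11 against 6 and 3 counts. Car12 over Car4, not apart at 0.32, also reversed with posterior mean TPM, to −0.64, beyond the spread. Car5a over Car14 passed the spread with FPKM (−1.07), posterior mean TPM (−1.06) and a pseudocount of 1 (−0.98). Scaling TPM by the spike-ins, which held 163 and 190 counts, moved the median of all genes from −0.05 to −0.26, and Car2 from −0.13 to −0.38. The members detected numbered 7 at a TPM of 0.5 and 6 at a TPM of 5, with posterior mean TPM and in either liver alone. Posterior mean TPM set Car4 at 0.365 and Car12 at 0.2, and gave Car5a-201 96.8% of its gene. The depth limits Car4, Car12 and Car5b, whose ratios rest on 20 counts or fewer. Pups in 1 litter and 1 library each limit every comparison of the livers.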
